A study of Mus musculus with 4 samples.

Results

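Fibroblasts and vascular smooth muscle cells of the aortic arch were compared between mice labelled Nrf2Cdh5tKO and mice labelled Nrf2Cdh5Lox, in single-cell RNA sequencing of 4 pooled libraries. Both cell classes were taken by fixed gates on raw UMIs, the counts of unique molecules. A fibroblast held at least 10 Dcn UMIs, at least 1 Pdgfra UMI, no Ptprc UMI and at most 1 Myh11 UMI. A smooth muscle cell held at least 5 Myh11 UMIs, at least 20 Acta2 UMIs, no Ptprc UMI and no Pdgfra UMI. These gates kept 6327 fibroblasts and 1684 smooth muscle cells, together 8011 of the 14148 cells that passed the quality limits and of the 15599 barcodes deposited. The gate genes were not ranked as results, but they stay in the marker sums, gene lists and gene counts. Acta2 is given for fibroblasts, whose gate does not use it.

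The mice were males that were 3 months old at the start, from a cross of the strain B6;129-Tg(Cdh5-cre)1Spe/J and the strain C57BL/6-Nfe2l2tm1.1Sred/SbisJ. Nrf2Cdh5Lox mice carry the loxP-flanked Nfe2l2 allele without Cre. In Nrf2Cdh5tKO mice the Cdh5 promoter drives Cre, which removes exon 5 of Nfe2l2, the exon for DNA binding and transactivation. That promoter is active in endothelial cells and in a share of blood cells, so neither fibroblasts nor smooth muscle cells are the cells the Cre aims at. The normocholesterolemic libraries, called the standard-diet pair here, pooled 4 mice each on standard diet, and the atherosclerotic libraries, called the high-fat pair, pooled 3 mice each after 21 weeks of high-fat diet. The treatment given alongside the high-fat diet is not described here, and its share in any difference between the diets cannot be told apart from that of the diet. Each combination of label and diet is 1 library, so no spread between pools of the same kind was measured. The p-values over the 4 libraries rest on 1 residual degree of freedom, the difference between the label effects on the 2 diets. They also rest on a spread estimated across genes, and do not measure the spread between mice. Values for the 4 libraries are always given in the order Nrf2Cdh5Lox on standard diet, Nrf2Cdh5tKO on standard diet, Nrf2Cdh5Lox on high-fat diet and Nrf2Cdh5tKO on high-fat diet.

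Nrf2, encoded by Nfe2l2, is a basic leucine zipper factor that is held back and degraded through Keap1 and, when oxidants or electrophiles modify Keap1, turns on genes for glutathione synthesis, NADPH supply and iron handling through antioxidant response elements. Fibroblasts of the adventitia make most of the interstitial collagen of the outer wall and secrete chemokines and growth factors, while medial smooth muscle cells contract and build the elastic lamellae. Both cell types answer mechanical stress, dissociation and cyclic AMP with quick transcription of immediate early genes such as the Nr4a nuclear receptors and Ptgs2.

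The promoters of 3 genes described for fibroblasts, and of 1 classical Nrf2 target, are shown because these genes or their families are described together. They run from 250 bases before to 50 bases after the start in RefSeq (build GRCm38.p6), all on the plus strand, and capitals mark the letters searched on both strands. For Bdnf the start used lies inside the gene, downstream of its annotated start at 109674700. The start used for Nr4a3 also lies downstream of the annotated start of that gene. Counts per gene do not tell which start was used. For Nr4a3, Ptgs2 and Bdnf these are TGACGT or its reverse complement ACGTCA, the core of a cyclic AMP response element. For Gclm they are TGACNNNGC or its reverse complement GCNNNGTCA, the core of an antioxidant response element. Both motifs, and the genes searched for the cyclic AMP core, were chosen after the expression values had been seen. The search looked for no overlap with other motifs.
Nr4a3, chr4:48045055-48045354: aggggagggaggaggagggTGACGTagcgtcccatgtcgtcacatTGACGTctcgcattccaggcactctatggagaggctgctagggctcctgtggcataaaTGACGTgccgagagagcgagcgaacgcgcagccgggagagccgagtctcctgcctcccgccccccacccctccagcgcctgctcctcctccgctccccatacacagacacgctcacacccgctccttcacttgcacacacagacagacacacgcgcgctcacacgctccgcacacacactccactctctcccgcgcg
Ptgs2, chr1:150099781-150100080: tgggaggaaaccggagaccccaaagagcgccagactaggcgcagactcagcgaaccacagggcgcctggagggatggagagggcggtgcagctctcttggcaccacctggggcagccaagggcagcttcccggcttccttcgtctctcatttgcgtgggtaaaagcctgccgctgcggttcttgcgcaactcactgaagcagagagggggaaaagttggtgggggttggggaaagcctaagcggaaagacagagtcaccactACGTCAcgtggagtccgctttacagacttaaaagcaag
Bdnf, chr2:109692186-109692485: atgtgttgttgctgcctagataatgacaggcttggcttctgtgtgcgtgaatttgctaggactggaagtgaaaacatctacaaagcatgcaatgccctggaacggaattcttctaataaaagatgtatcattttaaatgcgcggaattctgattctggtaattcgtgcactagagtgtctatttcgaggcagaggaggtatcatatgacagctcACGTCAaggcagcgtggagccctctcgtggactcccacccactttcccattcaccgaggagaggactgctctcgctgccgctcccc
Gclm, chr3:122245307-122245606: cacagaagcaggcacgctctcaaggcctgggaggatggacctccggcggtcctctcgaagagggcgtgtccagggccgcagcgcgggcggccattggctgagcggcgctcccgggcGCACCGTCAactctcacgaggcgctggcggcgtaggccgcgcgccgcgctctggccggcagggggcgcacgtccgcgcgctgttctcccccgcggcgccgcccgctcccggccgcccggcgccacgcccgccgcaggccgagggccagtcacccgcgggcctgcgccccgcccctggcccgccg
The cyclic AMP core was present in 7.513% of the 32851 promoters in the table. Of Nr4a2, Nr4a3, Egr3, Ptgs2, Bdnf and Inhba, 5 had an entry and 3 held the core, with 3 matches in Nr4a3. These genes were picked from the same data, so their share is no test against all promoters. The antioxidant core was present in 12.39% of all promoters and in 9 of the 24 Nrf2 target genes with an entry. A match describes letters only and does not show that a factor bound there.

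The fibroblast gate held 3568, 1396, 408 and 955 cells and the smooth muscle gate 1143, 276, 52 and 213 cells. Their summed UMIs were 44581325, 23579522, 5990686 and 11302580 in fibroblasts and 17762678, 4435210, 661328 and 2728895 in smooth muscle cells, so the Nrf2Cdh5Lox high-fat library was the shallowest in both classes. Fibroblasts were 45.2%, 47.0%, 40.0% and 42.1% of the kept cells. In fibroblasts 10 fibroblast markers summed to between 36720 and 44471 UMIs per 1000000 (CPM), and in smooth muscle cells to between 3225 and 3789 CPM. The sums of 10 smooth muscle markers were between 47184 and 53478 CPM in smooth muscle cells and between 419 and 775 CPM in fibroblasts. These sums include the gate genes, so the gates fixed part of the difference. Each marker outside the gate genes was also higher in its own class in every library. Between 90.9% and 98.0% of the fibroblasts in each library held Pi16, a marker of adventitial fibroblasts. At least 1 Pi16 UMI was also found in 59.9%, 43.8%, 23.1% and 30.5% of the smooth muscle cells. Holding it therefore does not show adventitial origin. Any 2 libraries shared 2 to 10 cell barcodes.

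Nfe2l2 itself (ENSMUSG00000015839, chr2:75675513-75704641, minus strand, build GRCm38) was not lower under the Nrf2Cdh5tKO label in either class. Fibroblasts held 190.3, 204, 204 and 245 CPM, and the fit over the 4 libraries gave a log2 difference of 0.16 ± 0.23 (SE, edgeR adjusted p = 1). Smooth muscle cells held 95.3, 97.2, 116 and 157 CPM, with a fitted difference of 0.21 ± 0.24 (SE, edgeR adjusted p = 1). In cells gated on Cdh5 and Pecam1, where the Cre is active, 62, 106, 25 and 61 Nfe2l2 UMIs came from 67, 40, 25 and 22 cells, and the log2 ratio was 0.95 (95% counting interval 0.48 to 1.43) on standard diet and 1.13 (0.44 to 1.87) on high-fat diet. In these gated cells 11 endothelial markers summed to 9493, 7603, 7550 and 6699 CPM, and 10 smooth muscle markers to 983, 2480, 523 and 3049 CPM. The part of RNA from other cells in these Nfe2l2 ratios was not tested. The deposited counts are per gene and do not separate exon 5, so the deletion itself could not be read from them, and libraries are named by their labels throughout.

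Differences between the labels were computed in 2 ways. For each diet, the log2 ratio of CPM, Nrf2Cdh5tKO over Nrf2Cdh5Lox, has a 95% interval that covers counting error only. Across the 4 libraries, edgeR's quasi-likelihood test with diet as a term was run on the summed UMIs of all genes with a mean of at least 10 CPM, and a gene was called at a Benjamini-Hochberg adjusted p under 0.05 with the same direction on both diets. With this rule, 49 of 8074 genes were called in fibroblasts (0.607%), 32 higher (0.396%) and 17 lower (0.211%). Smooth muscle cells had 8 calls among 7870 genes (0.102%), 1 higher (0.0127%) and 7 lower (0.0889%). Before adjustment, 341 genes in fibroblasts (4.22%) and 163 in smooth muscle cells (2.07%) had p under 0.05. The mean levels of called genes began at 10.2 CPM in fibroblasts and 12.1 CPM in smooth muscle cells. A gene high under only 1 label can pass the limit on the mean. For example, Enpp1 and S100a8 in fibroblasts and Corin in smooth muscle cells reached 10 CPM only in libraries of their higher label.

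The ratios of the 2 diets, which share no library, pointed apart more often than together. In fibroblasts 3377 of 8074 genes (41.8%) had the same direction in both pairs, and in smooth muscle cells 3101 of 7870 (39.4%). Across genes, Pearson's r between the pairs was −0.15 in fibroblasts and −0.19 in smooth muscle cells, and among genes with a mean of at least 100 CPM it was −0.20 and −0.40. Genes are not independent replicates, and these values describe the 4 libraries. Past 1.5-fold by counting interval in the same direction on both diets were 6 fibroblast genes (0.0743%), 4 of them higher (0.0495%), Ptgs2, Bdnf and Col8a1 included, and 2 lower (0.0248%), S100a8 and S100a9. The same limit was passed in opposite directions by 13 fibroblast genes (0.161%). In a single pair, 3.73% of fibroblast genes passed it on standard and 0.557% on high-fat diet, and 2.62% and 1.07% of smooth muscle genes. In smooth muscle cells 7 genes passed in the same direction (0.0889%), C1qa higher (0.0127%) and Grem1, S100a8, S100a9, Tnnt2, Pi16 and Gm26802 lower (0.0762%), and 16 in opposite directions (0.203%). For Grem1, Tnnt2 and Pi16 the lower level on high-fat diet rested on single cells, as described below.

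**Figure D1:**
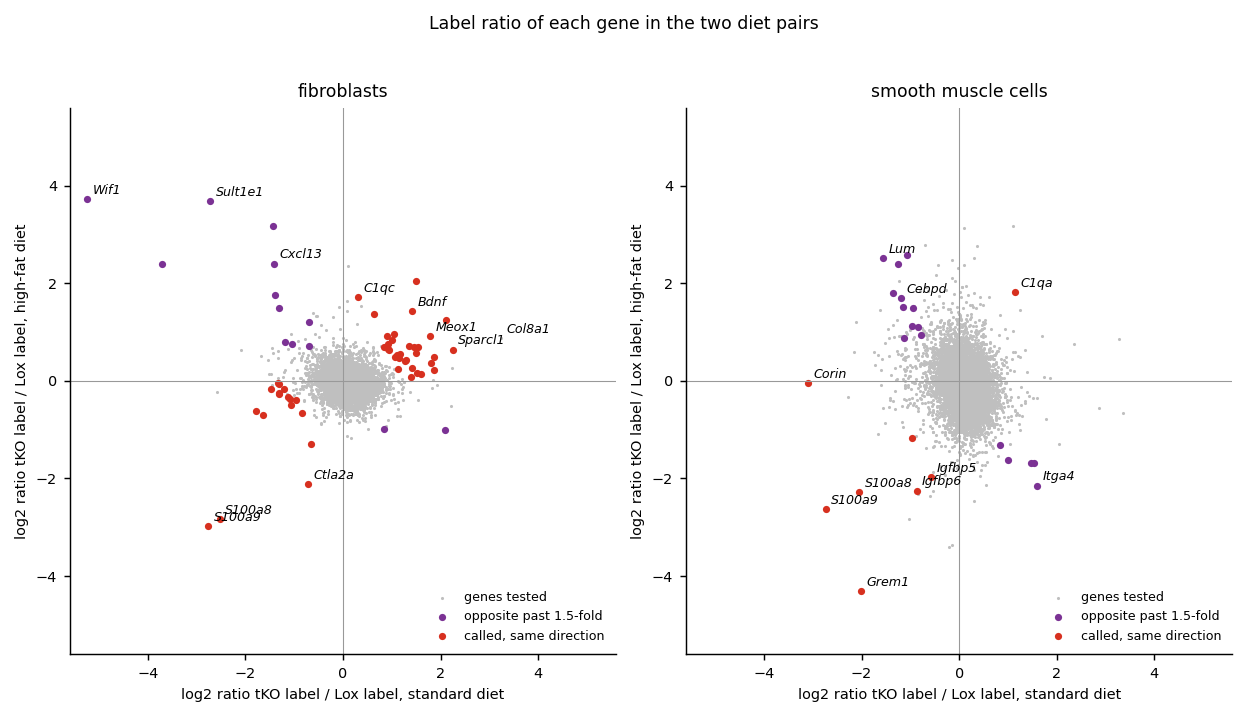
Each point is a tested gene, with the log2 ratio of the Nrf2Cdh5tKO over the Nrf2Cdh5Lox label on standard diet (x axis) against that on high-fat diet (y axis), for fibroblasts (left) and smooth muscle cells (right). Red points are the 49 and 8 called genes and purple points the 13 and 16 genes past 1.5-fold in opposite directions. The grey clouds do not follow the diagonal.

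Of the 49 fibroblast calls, 40 were larger on standard diet and 9 on high-fat diet, and for 15 the high-fat interval included a ratio of 0. In 28 of them both Nrf2Cdh5tKO libraries lay on one side of both Nrf2Cdh5Lox libraries, 15 higher and 13 lower. Among all tested fibroblast genes 12.5% stood apart upwards and 11.2% downwards. The count depended on single libraries: it was 0 without the Nrf2Cdh5Lox standard-diet library, 0 without the Nrf2Cdh5Lox high-fat library, 8 without the library labelled Nrf2Cdh5tKO on standard diet and 75 without the other Nrf2Cdh5tKO library. With edgeR, the 2 fits without calls had 236 and 716 genes with unadjusted p under 0.05. Those fits hold no diet term, since 3 libraries leave no residual degree of freedom beside it. DESeq2 called 9 of the 49 (among them Bdnf, Cxcl9, Meox1, Nr4a2, Nr4a3, Plac9b, S100a8 and S100a9), and in the few fibroblasts without Pi16 Bdnf was the only 1 of the 49 called again, among 13 calls.

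Bdnf and Inhba, which encode secreted signalling proteins, were higher in fibroblasts of both Nrf2Cdh5tKO libraries. Bdnf, the brain-derived neurotrophic factor (ENSMUSG00000048482, chr2:109674700-109727007, plus strand), had 10.8, 28.7, 5.51 and 14.9 CPM. Both Nrf2Cdh5tKO values were above both others, the log2 ratios were 1.41 (1.24 to 1.58) on standard diet and 1.43 (0.89 to 2.02) on high-fat diet, and the fitted difference was 1.39 ± 0.21 (SE, edgeR adjusted p = 2.2e-08). The Bdnf UMIs came from only 209, 107, 16 and 45 fibroblasts. The counting intervals do not cover the spread between these cells. Inhba, the subunit that forms activin A, had 15, 31, 10.5 and 20.4 CPM and rose by 0.98 ± 0.2 (SE, edgeR adjusted p = 2.5e-04) on the log2 scale. Its label groups did not overlap either, with ratios of 1.05 and 0.96 on the 2 diets. Smooth muscle cells held more of both genes. Without the highest cell, Bdnf was at 61, 52.2, 49.4 and 79 CPM there and Inhba at 109, 144, 182 and 184 CPM. The part of smooth muscle RNA in the fibroblast values was not tested.

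Among genes of the immediate early kind, Nr4a2, Nr4a3 and Egr3 rose in fibroblasts. Nr4a2 and Nr4a3 are orphan nuclear receptors induced within minutes to hours of stimulation. Nr4a2 had 61.2, 179, 44.1 and 71.6 CPM, with a fitted difference of 1.13 ± 0.2 (SE, edgeR adjusted p = 1.6e-05). Nr4a3 (ENSMUSG00000028341, chr4:48045153-48086447, plus strand) had 79.8, 218, 56.6 and 91.9 CPM, with ratios of 1.45 (1.39 to 1.51) on standard diet and 0.7 (0.52 to 0.88) on high-fat diet and a fitted difference of 1.07 ± 0.21 (SE, edgeR adjusted p = 1.1e-04). The label groups did not overlap for either gene. Egr3, a zinc finger factor of the same response, had 27.4, 59.5, 11.4 and 16.4 CPM and a fitted difference of 0.86 ± 0.19 (SE, edgeR adjusted p = 0.00271). Ptgs2, the inducible prostaglandin synthase COX-2, was at 289, 498, 201 and 331 CPM, with ratios of 0.79 (0.75 to 0.82) on standard diet and 0.72 (0.63 to 0.82) on high-fat diet. These were past 1.5-fold on both diets with narrow intervals, yet the fit did not call it, at 0.74 ± 0.24 (SE, edgeR adjusted p = 0.23).

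The whole list of immediate early genes, which holds Nr4a2, Nr4a3 and Egr3 but not Ptgs2, was more mixed than these members. Of its 25 tested genes, 3 were called higher and none lower, 9 were higher and 5 lower on both diets, and the median log2 ratio was −0.02 on standard and 0.21 on high-fat diet, against medians over all genes of 0.07 and −0.03. Of 18 tested genes of the stromal chemokine and cytokine list, Cxcl9, described below, was the only 1 called, with medians of −0.07 and 0.31. Ccl19 is not among the 18, because several genes in the files share its symbol and the list could not be matched to one of them, and the entry called lower is given below. Of the 18, 6 were higher and 5 lower on both diets. Il6 had 226, 319, 122 and 213 CPM and Cxcl1 1032, 1145, 441 and 633 CPM, both higher on each diet but not called. Cxcl12, another member, was lower on each diet and not called, at 428, 314, 902 and 819 CPM without its highest cell.

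Of the other fibroblast calls, Meox1, a homeobox factor of somite and fibroblast development, had 40.1, 139, 8.51 and 16 CPM, and its ratios were 1.79 (1.7 to 1.87) on standard diet and 0.91 (0.46 to 1.39) on high-fat diet. Its fitted difference was 1.44 ± 0.2 (SE, edgeR adjusted p = 1.5e-09). Meox1 UMIs were found in 10.4%, 31.45%, 3.68% and 5.65% of the fibroblasts. Sums over a gate do not separate a change per cell from a change in the mix of fibroblast kinds. Which of these lay behind any called fibroblast gene was not tested. F2r, the thrombin receptor PAR1, had 34.2, 96.8, 14.5 and 21.6 CPM. Gucy1a1 and Gucy1b1, which together form the nitric oxide receptor guanylate cyclase, had 15.1, 38.4, 7.01 and 11.6 CPM and 10.00, 18.6, 4.17 and 7.87 CPM. Both subunits were thus higher on each diet in the fibroblast gate, by 1.09 ± 0.2 (SE, edgeR adjusted p = 5.6e-05) and 0.87 ± 0.21 (SE, edgeR adjusted p = 0.0091). Heyl, a target of Notch signalling, had 26.3, 64.8, 18 and 24.3 CPM, and Ppp1r14a, an inhibitor of myosin phosphatase, 29.4, 55.9, 15.4 and 25.9 CPM. All 6 genes also fell from standard to high-fat diet, and their label groups overlapped. Of 15 contractile smooth muscle genes tested in fibroblasts, Ppp1r14a was the only 1 called, and 8 were lower on standard and higher on high-fat diet. Myh11 itself was limited by the gate. Smooth muscle cells held far more of the following genes, given without the highest cell of each gene. Gucy1a1 was at 456, 498, 497 and 470 CPM there and Gucy1b1 at 309, 304, 349 and 231.5 CPM. Ppp1r14a was at 995, 895, 840 and 818 CPM. The part of smooth muscle RNA in the fibroblast values of these genes was not tested.

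Some matrix genes were higher in the Nrf2Cdh5tKO-labelled libraries, mostly on standard diet. Sparcl1, a matricellular glycoprotein, had 84.8, 402, 41.1 and 64.1 CPM, with ratios of 2.24 (2.19 to 2.3) on standard diet and 0.64 (0.43 to 0.86) on high-fat diet and a fitted difference of 1.47 ± 0.23 (SE, edgeR adjusted p = 3.3e-07). Col15a1 and Vwa1, both of the basement membrane zone, had 134, 358, 75.3 and 90.6 CPM and 29.9, 66, 11.7 and 16.2 CPM. Enpp1, which makes the mineralisation inhibitor pyrophosphate, had 7.72, 28, 5.51 and 7.79 CPM. For these genes the high-fat difference was the smaller one, and for Enpp1 its interval included 0, with ratios of 1.86 and 0.5. Col8a1, a short-chain collagen, had 21.9, 206, 21.7 and 39.8 CPM. Its UMIs were found in 9.75%, 36.2%, 9.8% and 12.15% of the fibroblasts. Its ratios, 3.23 (3.13 to 3.33) on standard diet and 0.88 (0.59 to 1.17) on high-fat diet, were past 1.5-fold on both diets but so unequal that the fit gave 2.16 ± 1.18 (SE, edgeR adjusted p = 1).

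Collagens as a family had ratios of opposite sign on the 2 diets. Of 13 fibrillar and fibril-associated collagens tested in fibroblasts, 12 were higher on standard and lower on high-fat diet, Col8a1 was the exception, and none was called (none had an unadjusted p under 0.05 in edgeR either). Their median log2 ratio was 0.40 on standard and −0.18 on high-fat diet. Col1a1 had 1751, 2318, 1708 and 1366 CPM and Col3a1 2159.6, 3279, 1492 and 1301 CPM. Of 9 collagens tested in smooth muscle cells, 7 had that same change of sign, with medians of 0.37 and −0.21. Both classes come from the same 4 libraries.

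Sterol synthesis genes were mostly higher in fibroblasts, chiefly on standard diet. Of 14 tested in smooth muscle cells none was called, 5 were higher on both diets and 7 lower on standard and higher on high-fat diet. Of 13 tested in fibroblasts, 8 were higher on both diets and 2 were called, with medians of 0.60 on standard and 0.04 on high-fat diet. Cyp51, the lanosterol demethylase, had 23.6, 47.2, 6.68 and 11.9 CPM and a fitted difference of 0.91 ± 0.2 (SE, edgeR adjusted p = 0.00215). Idi1, an isomerase of the isoprenoid steps, had 25.9, 54.4, 7.34 and 10.4 CPM and 0.84 ± 0.2 (SE, edgeR adjusted p = 0.00671). Hmgcs1, at 33.5, 77.5, 20.4 and 20.8 CPM, had ratios of 1.21 and 0.03 and was not called. Without the library labelled Nrf2Cdh5tKO on standard diet, Cyp51 and Idi1 turned to −0.45 and −0.78.

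Leaving out that library also reversed Meox1 (−0.69), F2r (−0.23), Vwa1 (−0.43), Col15a1 (−0.23) and Egr3 (−0.31), in all 13 of the called genes examined. Such a fit sets the Nrf2Cdh5tKO high-fat library against Nrf2Cdh5Lox libraries of both diets. Bdnf, Inhba, Nr4a2 and Nr4a3 kept their sign in every fit that left out 1 library.

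Other higher calls in fibroblasts were the linker histone Hist1h1e, at 13.9, 39.8, 39.1 and 44 CPM, the core histone Hist2h2ac, at 4.64, 16.2, 15.5 and 19.9 CPM, and Nrxn2, Plekha6, Lhfpl2, AC149090.1, Akap2, Cbfa2t3, Wfdc17, Panx1, Kif1a, Cxcl9 and the complement genes C1qa and C1qc. In Hist1h1e and Hist2h2ac the lowest value by far was the Nrf2Cdh5Lox standard-diet library, and the other 3 lay close together. The noncoding transcript Gm42418, not called, was also lowest there in both classes. Without its highest cell it had 3106, 10970, 12180 and 11560 CPM in fibroblasts and 3873, 28160, 28210 and 19360 CPM in smooth muscle cells. The part of a shift of that whole library in the calls was not tested. Panx1, a channel for ATP release, had 10.8, 19.4, 5.01 and 8.05 CPM and the corepressor Cbfa2t3 10.3, 19.7, 10.2 and 15.8 CPM.

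**Figure D2:**
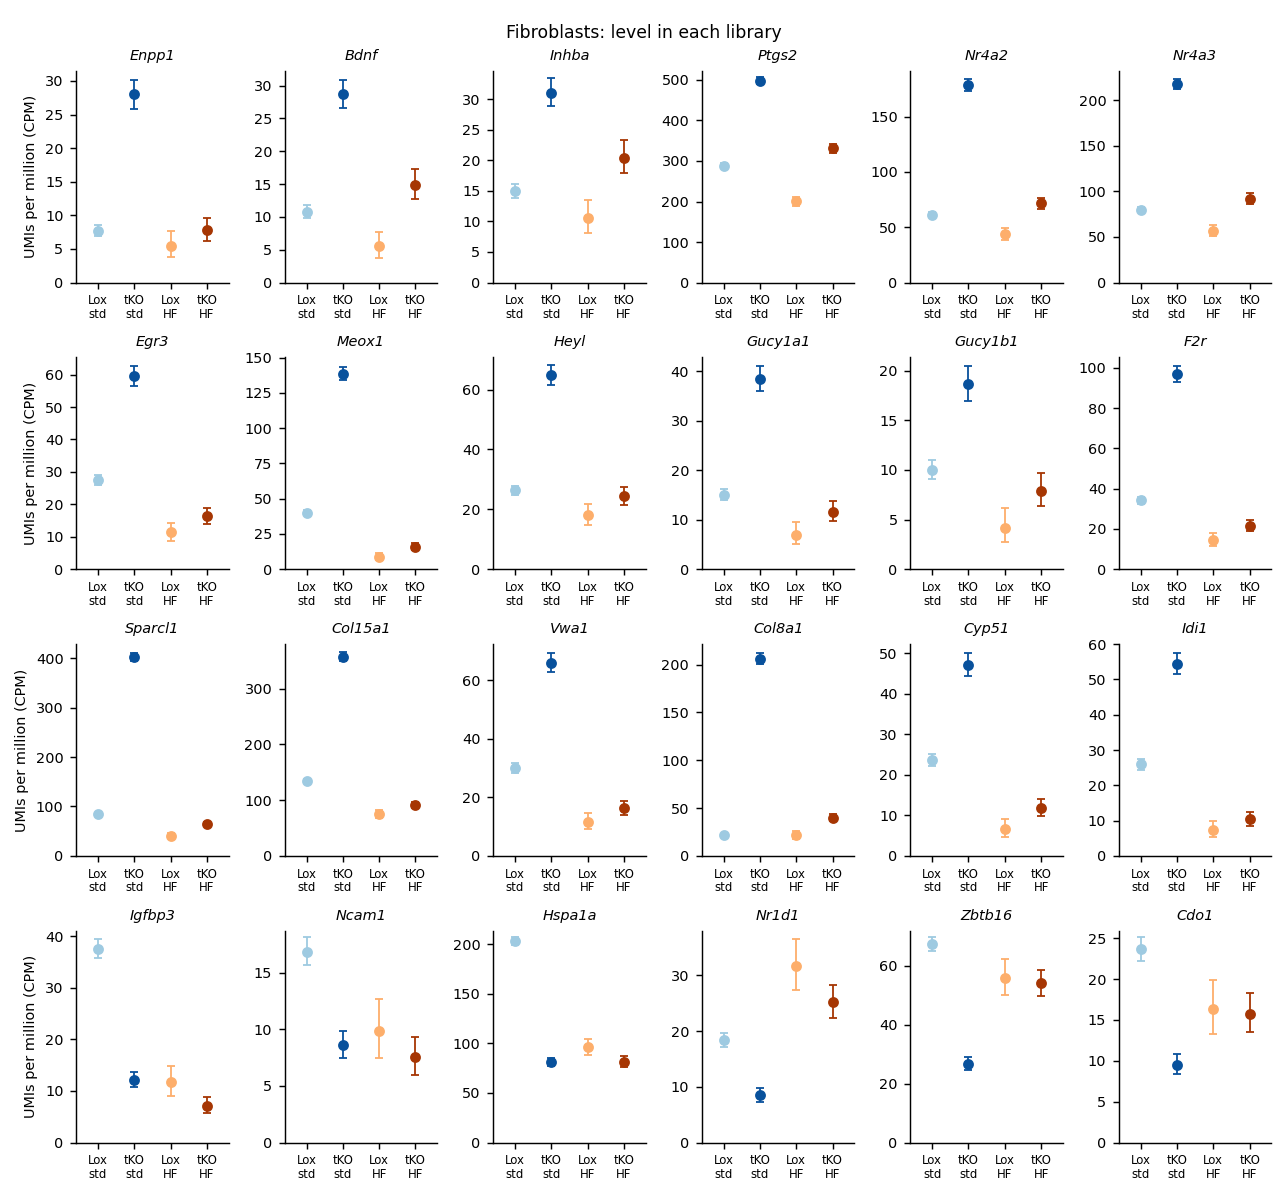
Levels of 24 named genes in fibroblasts, in CPM, for each of the 4 libraries, with bars for the 95% Poisson interval of the count. Bdnf, Inhba, Nr4a2 and Nr4a3 are higher in both Nrf2Cdh5tKO libraries, while Meox1, Sparcl1 and Col8a1 have their highest level in the library labelled Nrf2Cdh5tKO on standard diet.

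Among the 17 lower calls in fibroblasts were Igfbp3, Zbtb16, Nr1d1, Ncam1 and Phex. Igfbp3, which binds insulin-like growth factors, had 37.5, 12.1, 11.7 and 7.17 CPM, with ratios of −1.63 (−1.82 to −1.45) on standard diet and −0.71 (−1.18 to −0.22) on high-fat diet and a fitted difference of −1.29 ± 0.21 (SE, edgeR adjusted p = 3.3e-07). The Igfbp3 UMIs came from only 249, 49, 11 and 24 fibroblasts, and the intervals do not cover the spread between these cells. Zbtb16, a factor strongly induced by glucocorticoids, had 67.2, 26.8, 55.9 and 54 CPM and differed mainly on standard diet, with ratios of −1.33 and −0.05. Nr1d1, the clock repressor Rev-erb alpha, had 18.3, 8.44, 31.7 and 25.2 CPM, with a fitted difference of −0.76 ± 0.19 (SE, edgeR adjusted p = 0.0199). Ncam1, a neural cell adhesion molecule, had 16.9, 8.61, 9.85 and 7.52 CPM and the endopeptidase Phex 17.4, 7, 20.03 and 16.6 CPM. Smooth muscle cells held far more Ncam1, at 340, 450, 585 and 448 CPM without its highest cell. The part of their RNA in the fibroblast values was not tested. For Zbtb16, Ncam1 and Phex the high-fat interval included 0.

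Hspa1a, an inducible Hsp70 whose reads a near-identical copy can share, had 203, 81.3, 96.3 and 81.5 CPM and a fitted difference of −0.81 ± 0.21 (SE, edgeR adjusted p = 0.0217). It was the 1 call among 13 heat shock genes tested in fibroblasts, of which 3 were lower on both diets and 10 lower on standard and higher on high-fat diet, with medians of −0.58 and 0.18. Cdo1, which oxidises cysteine, had 23.6, 9.54, 16.4 and 15.7 CPM. Etfbkmt, a lysine methyltransferase of mitochondria, was lower by similar amounts on each diet, with 24.5, 13.7, 33.7 and 21.3 CPM and a fitted difference of −0.77 ± 0.19 (SE, edgeR adjusted p = 0.00913). The chemokine gene Ccl19 (ENSMUSG00000071005) had 106, 49.8, 109 and 85.1 CPM and Plac9b 53.9, 34.4, 123 and 50.1 CPM. Both have near-identical copies in the genome, so their values are uncertain. Lsmem1, 1500015O10Rik, Gm17056, Gm26917, S100a8, S100a9 and Ctla2a complete the lower calls.

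S100a8 and S100a9, the chains of the neutrophil protein calprotectin, had the largest negative fitted differences among the called fibroblast genes. S100a9 had 32.7, 4.83, 18.9 and 2.39 CPM and S100a8 20.7, 3.6, 16.4 and 2.3 CPM. Both label groups were far apart, with fitted differences of −2.87 ± 0.22 (SE, edgeR adjusted p = 2.9e-34) and −2.66 ± 0.22 (SE, edgeR adjusted p = 2.6e-29). Smooth muscle cells held nearly the same levels, 31.5, 4.73, 18.1 and 2.93 CPM for S100a9 and 22.4, 5.41, 19.7 and 4.03 CPM for S100a8, with fitted differences of −2.72 ± 0.38 (SE, edgeR adjusted p = 5.1e-06) and −2.14 ± 0.38 (SE, edgeR adjusted p = 5.3e-04). In fibroblasts the S100a8 UMIs were spread over 795, 78, 82 and 26 cells, at about 1 UMI per cell.

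The neutrophil markers as a list stood at 56.8, 9.29, 37.4 and 5.49 CPM in fibroblasts and at 56.8, 10.6, 37.8 and 7.70 CPM in smooth muscle cells, and at 4263, 3178, 14719 and 2274 CPM in the other kept cells. Retnlg, a neutrophil marker outside the calprotectin pair, gave 150, 20, 13 and 9 UMIs in fibroblasts. The marker level was thus alike in both gated classes of each library and higher in both Nrf2Cdh5Lox libraries. S100a8 and S100a9 values in these gates are given as levels in the droplets and not read as expression by stromal cells, and the part of free or carried neutrophil RNA in the difference was not tested.

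C1qa and C1qc, chains of complement C1q made mainly by macrophages, were higher in both Nrf2Cdh5tKO libraries. C1qa had 22.4, 34.9, 26.4 and 68.3 CPM in fibroblasts, with 0.96 ± 0.18 (SE, edgeR adjusted p = 9.7e-05), and 17, 37.4, 18.1 and 63.8 CPM in smooth muscle cells, with 1.33 ± 0.27 (SE, edgeR adjusted p = 0.00829). C1qc had 14.9, 18.5, 13.9 and 45.6 CPM in fibroblasts. Label groups did not overlap in any of these comparisons. The list of 14 macrophage markers summed to 368, 285, 331 and 602 CPM in fibroblasts, to 266, 310, 268 and 503 CPM in smooth muscle cells and to 18854, 13457, 15628 and 20185 CPM in the other kept cells. It was highest in the library labelled Nrf2Cdh5tKO on high-fat diet in all of these cell sets, and no macrophage marker was at 0 in either gated class. C1qb, the remaining chain, was not called. In fibroblasts C1qb had 30.0, 31.6, 26.4 and 71.1 CPM, with ratios of 0.07 (−0.06 to 0.20) on standard diet and 1.43 (1.18 to 1.69) on high-fat diet. Of the other macrophage markers in fibroblasts on standard diet, Pf4, Mrc1 and Aif1 were higher under the Nrf2Cdh5tKO label. Cd74, Lyz2, Fcer1g, Tyrobp, Cd68, Csf1r, Ctss and Adgre1 were lower there. The part of macrophage RNA in the C1q difference was not tested.

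C1qa was the 1 gene called higher in smooth muscle cells, and of the 7 called lower, S100a8 and S100a9 are described above. DESeq2 called 2 genes, Grem1 and S100a9, and without 1 library the count was 2 (without the Nrf2Cdh5Lox standard-diet library) or 11 (without any other). For 4 of the other 5, single cells of the Nrf2Cdh5Lox high-fat library held most of that library's UMIs. Grem1, a secreted antagonist of bone morphogenetic proteins, had 9.12, 2.25, 72.6 and 3.66 CPM, and all 48 UMIs of the third value were in 1 of the 52 cells. Igfbp5 had 119.9, 80.7, 874 and 222 CPM, with 506 of 578 UMIs in 1 cell, and Igfbp6 22.3, 12.2, 184 and 38.8 CPM, with 117 of 122 UMIs in that same cell. This cell held 29565 UMIs, 5715 genes, 58 Myh11 UMIs, 116 Acta2 UMIs and 366 Dcn UMIs, so it carried fibroblast transcripts beside contractile ones. Of the 196 Pi16 UMIs there, 183 were its own. Another cell held 73 of the 78 UMIs of Tnnt2, the cardiac troponin T, whose level was 194, 99, 118 and 52.8 CPM.

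The fitted differences before any cell was left out were −3.23 ± 0.44 (SE, edgeR adjusted p = 5.1e-06) for Grem1, −1.27 ± 0.28 (SE, edgeR adjusted p = 0.0481) for Igfbp5, −1.57 ± 0.27 (SE, edgeR adjusted p = 5.3e-04) for Igfbp6 and −1.05 ± 0.24 (SE, edgeR adjusted p = 0.0481) for Tnnt2. When the highest cell of every gene was left out of each library, all 4 lost their call. On high-fat diet all 4 were then higher under the Nrf2Cdh5tKO label. The Nrf2Cdh5Lox and Nrf2Cdh5tKO high-fat levels were 0 and 2.21 CPM for Grem1, 114 and 139.8 for Igfbp5, 7.91 and 31.35 for Igfbp6 and 7.75 and 32.9 for Tnnt2. Pi16, not called, changed in the same way, to 20.6 and 100.6 CPM. Corin, a serine protease of the heart that activates natriuretic peptide, had 40.8, 4.73, 1.51 and 1.47 CPM from 724, 21, 1 and 4 UMIs, so its high-fat ratio of −0.04 had an interval of −3.38 to 5.58. Without the Nrf2Cdh5Lox standard-diet library the Corin difference reversed to 1.21. Atrial muscle markers summed to 383, 281, 142 and 82.8 CPM in the smooth muscle gate, with 3, 0, 5 and 2 of the 8 at 0, and their part in the Tnnt2 and Corin values was not tested.

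With the highest cells left out, 8 genes were again called in smooth muscle cells, but 6 were higher and 2 lower, and 3 of the earlier calls remained: C1qa, S100a8 and S100a9. Sfrp2, a secreted Wnt modulator, became called at an edgeR adjusted p of 0.00693. It had 193, 491, 262 and 408 CPM with all cells, with ratios of 1.35 (1.27 to 1.42) on standard diet and 0.64 (0.41 to 0.88) on high-fat diet and 1.01 ± 0.27 (SE, edgeR adjusted p = 0.191). Mfap4, a microfibril protein, was not called but had ratios of 0.49 and 0.49, from 470.4, 661, 502 and 707 CPM. This way of counting removes a larger share of UMIs from the library with the fewest cells.

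In fibroblasts the same step left 46 calls, 44 of them shared with the 49 above. Cxcl9, an interferon-gamma-induced chemokine, had 7.99, 34.7, 0.334 and 0.796 CPM, and 796 of the 819 UMIs behind the second value came from 1 cell. Its difference, 2.01 ± 0.25 (SE, edgeR adjusted p = 6.3e-12) with all cells, turned to −2.05 without the highest cell of each library, with an edgeR adjusted p of 0.0226. Ctla2a, whose reads a near-identical copy can share, had 3.01, 1.82, 35.4 and 8.14 CPM, where 202 of 212 UMIs of the third value and 72 of 92 of the fourth were in 1 cell each. Ctla2a lost its call, with a difference of −1.02. Panx1 (0.76), Ncam1 (−0.67) and 1500015O10Rik (−0.90) also lost theirs, at log2 differences close to those with all cells, which were 0.76, −0.77 and −0.91. Meox1, S100a8, S100a9 and C1qa stayed close to their level.

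**Figure D3:**
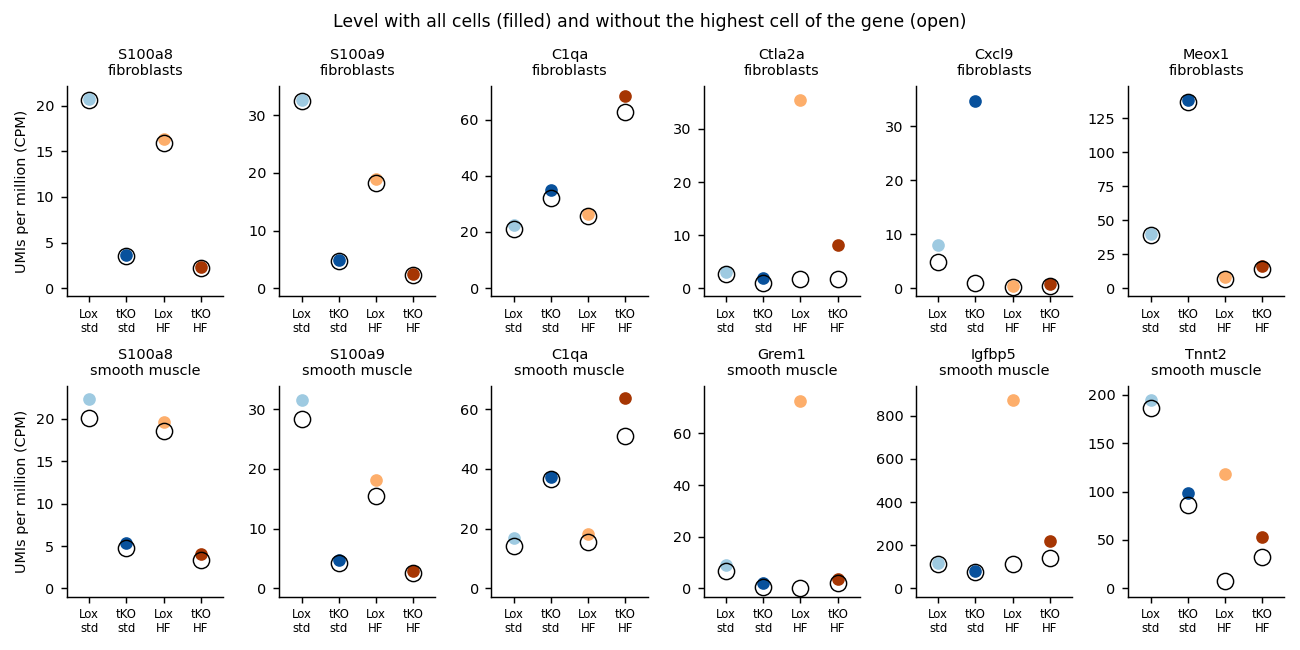
Level in CPM of 6 genes in fibroblasts (top) and 6 in smooth muscle cells (bottom) in each library, with all cells (filled) and after leaving out the cell with most UMIs of that gene (open). Cxcl9, Ctla2a, Grem1, Igfbp5 and Tnnt2 drop steeply in at least 1 library, while S100a8, S100a9 and Meox1 barely move.

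Across the 2 classes 7112 genes were tested in both, and 3 of them were called in both (0.0422%): S100a8, S100a9 and C1qa. Over the 7112 genes, Pearson's r between the label ratios of the 2 classes was 0.59 on standard and 0.23 on high-fat diet. The direction was the same in both classes for 74.3% of the genes on standard and 59.6% on high-fat diet. A test of label by cell class over the same libraries called 1 of 8223 genes (0.0122%), with 362 at an unadjusted p under 0.05 (4.40%). That gene was Gm26771, a noncoding transcript with 1136, 1736, 1351 and 1932 UMIs in fibroblasts and 162, 394, 43 and 323 in smooth muscle cells. Without its highest cell, Gm26771 had 25.1, 70.8, 219 and 164 CPM in fibroblasts and 8.79, 85.5, 40.1 and 85.9 CPM in smooth muscle cells. In fibroblasts it was thus higher on standard and lower on high-fat diet under the Nrf2Cdh5tKO label. Its label difference was higher in smooth muscle cells by 1.58 ± 0.18 (SE) on the log2 scale, with an edgeR adjusted p of 0.0415, but 0.612 when the highest cell of each gene was left out. Gm26771 was called in neither class on its own. Genes that were called in 1 class only are therefore not shown to differ between the classes by these data. For example Nr4a3, called in fibroblasts, had 21.4, 17.1, 19.7 and 44.7 CPM in smooth muscle cells, with ratios of −0.32 and 1.19.

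No listed target of Nrf2 was called in either class. Of the antioxidant targets, 25 were tested in fibroblasts and 25 in smooth muscle cells, and edgeR left all uncalled, with 3 and 1 at an unadjusted p under 0.05. Median log2 ratios were −0.19 on standard and −0.06 on high-fat diet in fibroblasts, and −0.10 and 0.03 in smooth muscle cells. In fibroblasts 10 targets were lower and 3 higher on both diets. In glutathione synthesis, the catalytic subunit gene Gclc had 48.5, 32.6, 41.9 and 33.8 CPM and the modifier subunit gene Gclm 42, 50.4, 37.6 and 41.6 CPM, so the ratios of these subunits had opposite signs. Hmox1, the haem oxygenase, had 87.3, 43, 37.9 and 33.4 CPM with ratios of −1.02 (−1.12 to −0.92) on standard diet and −0.18 (−0.43 to 0.06) on high-fat diet. Gstp1, a glutathione transferase, had 185, 114, 158 and 130.3 CPM, with ratios of −0.7 and −0.28.

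Nqo1, a quinone reductase often used as a readout of Nrf2, was under the limit of 10 CPM in fibroblasts, with 153, 65, 26 and 28 UMIs. These were 3.43, 2.76, 4.34 and 2.48 CPM, with Nqo1 ratios of −0.32 (−0.76 to 0.11) on standard diet and −0.81 (−1.63 to 0.02) on high-fat diet. Smooth muscle cells held more of it, 19.6, 16.9, 19.7 and 15.8 CPM, with ratios of −0.21 (−0.59 to 0.15) on standard diet and −0.32 (−1.24 to 0.7) on high-fat diet. Gclm in smooth muscle cells was at 53.9, 66.3, 48.4 and 69.99 CPM and Srxn1, the sulfiredoxin, at 13.6, 16.9, 15.1 and 11.4 CPM. Of these, Gclm was higher and Nqo1 lower on both diets, and Srxn1 changed sign. The iron storage genes Fth1 and Ftl1 were lower on standard and higher on high-fat diet in both classes, with ratios of −0.49 and 0.29 for Fth1 and −0.5 and 0.21 for Ftl1 in fibroblasts. Among 10 tested genes of the list of Nrf2 and its regulators, Nfe2l2 included, none was called in either class by edgeR (1 and 0 at an unadjusted p under 0.05). Keap1 had 33.8, 45, 41.7 and 42.8 CPM in fibroblasts, and the small Maf gene Maff 117, 163, 60.3 and 91.9 CPM. Of the genes within 5 Mb of Nfe2l2, 32 were tested in fibroblasts and 36 in smooth muscle cells, and none was called (1 and 1 at an unadjusted p under 0.05 in edgeR).

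Smooth muscle cells had stress-related lists that were lower on standard and higher on high-fat diet under the Nrf2Cdh5tKO label. Of 25 immediate early genes 22 showed this change of sign, with medians of −0.59 and 0.45, against all-gene medians of 0.07 and −0.08. Fos had 6964, 4463, 4594 and 5949 CPM and Junb 1813, 1185, 1258 and 2414 CPM. Of 9 glucocorticoid response genes 8 did so, with medians of −1.15 and 0.64, and of 13 heat shock genes 12 did so, with medians of −0.72 and 0.36. Hspa8, a constitutive chaperone, had 2441, 1484, 1607 and 2064 CPM and Hspb1 2502, 1178, 1462 and 2049 CPM. No gene of these 3 lists was called in smooth muscle cells by edgeR, and 0, 3 and 0 of the immediate early, glucocorticoid and heat shock genes had an unadjusted p under 0.05. Fos, Junb and Hspa8 were highest in the Nrf2Cdh5Lox standard-diet and the Nrf2Cdh5tKO high-fat library.

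Smooth muscle identity genes gave no call. Of 20 contractile genes tested in smooth muscle cells none was called by edgeR (none had an unadjusted p under 0.05 either), and the medians were −0.02 and −0.09. The list holds Acta2 and Myh11, on which these cells were gated. Cells with little of either could not enter, which limits what the list can show. Of 11 genes of modulation and chondrogenic change none was called (1 at an unadjusted p under 0.05 in edgeR), with medians of −0.27 and 0.10. In bone morphogenetic and transforming growth factor signalling, 17 genes were tested in smooth muscle cells and Grem1 alone was called, and 20 in fibroblasts, where Inhba alone was called.

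Lists of energy metabolism and translation had small medians of opposite sign on the 2 diets. For 78 nuclear-encoded respiratory chain genes the medians were −0.21 and 0.11 in fibroblasts and −0.22 and 0.12 in smooth muscle cells, with 57 and 49 of them lower on standard and higher on high-fat diet. Ribosomal protein genes had medians of −0.19 and 0.03 in fibroblasts and −0.18 and 0.07 in smooth muscle cells. Hypoxia and glycolysis genes were lower on both diets for 7 of 9 tested in fibroblasts, with medians of −0.26 and −0.08, and 8 of 12 genes of MHC class I presentation were lower on both diets, with medians of −0.21 and −0.05. None of these was called by edgeR, and at an unadjusted p under 0.05 were 2 hypoxia and glycolysis genes and 1 MHC class I gene in fibroblasts and no respiratory chain or ribosomal gene in either class.

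**Figure D4:**
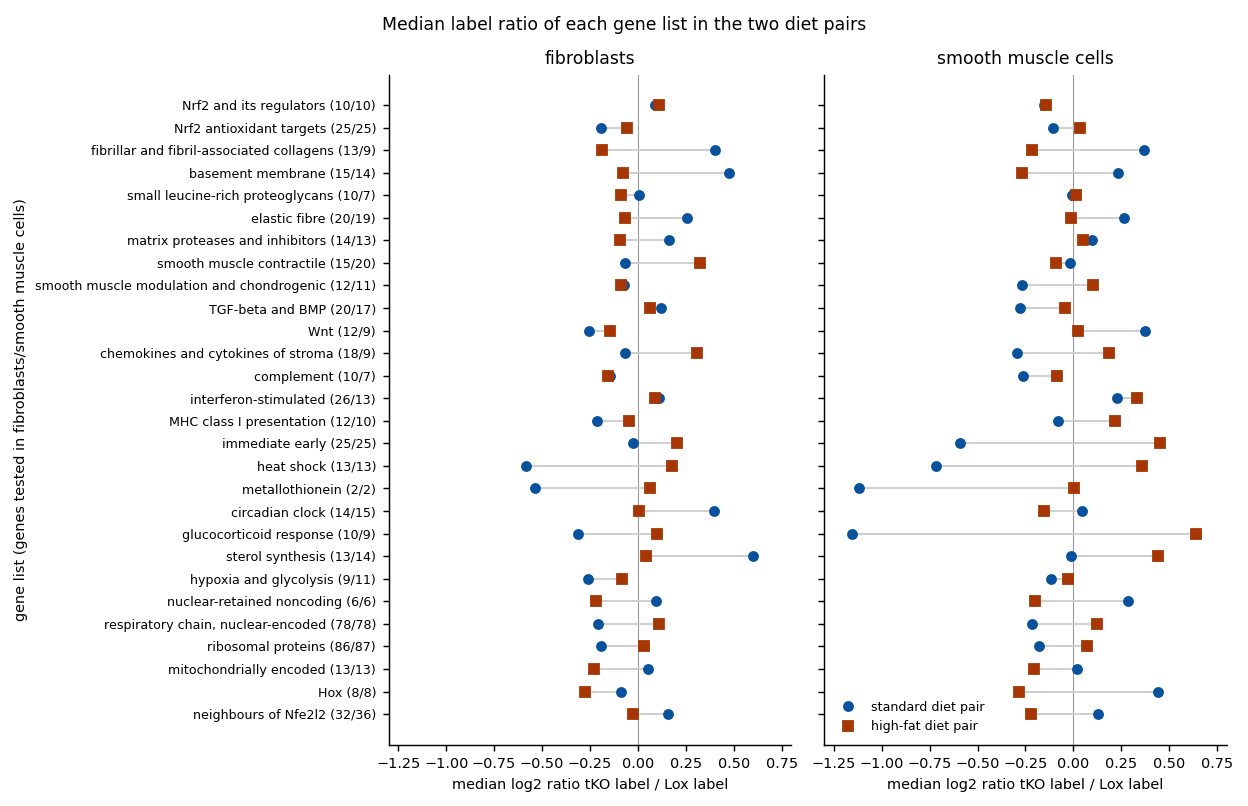
Median log2 ratio of the Nrf2Cdh5tKO over the Nrf2Cdh5Lox label for 28 gene lists, on standard and on high-fat diet, in fibroblasts and smooth muscle cells. In smooth muscle cells the glucocorticoid, heat shock and immediate early lists lie below 0 on standard diet and above 0 on high-fat diet, and in both classes the collagens lie the other way round.

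Single genes with opposite ratios past 1.5-fold by counting interval were mostly lower on standard and higher on high-fat diet, 11 of 13 in fibroblasts and 11 of 16 in smooth muscle cells. In fibroblasts they included Wif1, a secreted Wnt inhibitor, at 37, 0.975, 0.167 and 2.21 CPM, Sult1e1, the oestrogen sulfotransferase, at 38.9, 5.89, 1.67 and 21.5 CPM, and the chemokine Cxcl13, at 43, 16.1, 4.51 and 23.9 CPM. Most of the Sult1e1 UMIs on high-fat diet, 181 of 243 under the Nrf2Cdh5tKO label, were in 1 cell. Acta2, which the fibroblast gate does not limit, had 295, 181, 139.6 and 322 CPM and the small heat shock gene Hspb1 488, 302, 155 and 255 CPM. Cilp, a cartilage matrix protein, went the other way with 56.9, 101, 45.2 and 22.8 CPM. In smooth muscle cells Id3, a helix-loop-helix inhibitor, had 1211, 551, 726 and 1326 CPM, Cebpd 368, 161, 163 and 529 CPM and Sgk1, a kinase induced by glucocorticoids, 176, 78.9, 60.5 and 172 CPM. For each of these, the Nrf2Cdh5Lox standard-diet and the Nrf2Cdh5tKO high-fat library were the 2 highest. Itga4, an integrin chain, was at 11.1, 33.6, 21.2 and 4.76 CPM and went the other way. With 1 library per label and diet, an interaction of label with diet leaves no residual degree of freedom and was not tested.

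**Figure D5:**
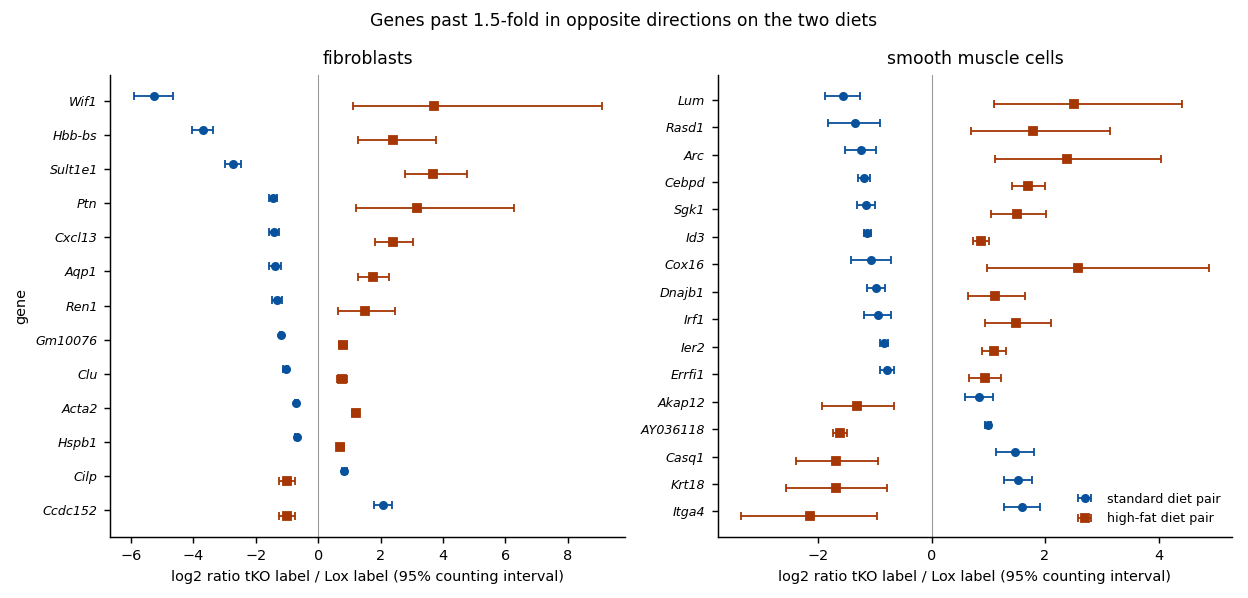
Log2 ratio of the Nrf2Cdh5tKO over the Nrf2Cdh5Lox label on each diet, with 95% counting intervals, for the 13 fibroblast and 16 smooth muscle genes past 1.5-fold in opposite directions. In fibroblasts 11 genes lie below 0 on standard and above 0 on high-fat diet, and Cilp and Ccdc152 lie the other way.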

How the data were processed

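Counts were deposited by the authors as UMI matrices per library, processed with Cell Ranger 6.1.2 against mm10. They came from 10x 3' v3.1 libraries of live-sorted (DAPI-negative) cells of the aortic arch with branches and perivascular tissue. Barcodes under 200 or above 6000 genes, or above 15% mitochondrial UMIs, were left out. Doublets were limited by the gates and the 6000-gene limit. Counts were summed per library and class and tested with edgeR 4.0.16 (R 4.3.3, TMM, robust quasi-likelihood fit, diet and label as terms, 1 residual degree of freedom, mean of at least 10 CPM). The fit assumes that the 4 libraries vary alike. Intervals are exact and cover counting error only. Gene positions are from GENCODE M21. Scripts were tested on simulated data. Alternatives were DESeq2 1.42.0, size factors, filters, gates, Scrublet, thinning and left-out libraries. 3 alternatives (other-cell markers left out, subsets of genes by level, the highest cell left out) were chosen after seeing the data. Members and gene lists were chosen with earlier results of these data known. Named by rule were genes past 1.5-fold on both diets in 1 direction (up to 12 each way), Nfe2l2, Nqo1, Gclm, and per list up to 4 such members or, where none passed, the 2 with the highest mean level. The other genes, called ones and those with opposite ratios included, were named after their values were seen. Some items are not reported here.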

Additional observations from a re-analysis of the deposited data

Results flagged for a closer look

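For 3 results the label difference was set side by side between cell classes or diets. The label difference of Gm26771 was 1.58 higher on the log2 scale in smooth muscle cells than in fibroblasts, by a test of label and cell class together (edgeR adjusted p = 0.0415). With the highest cell of each gene left out the value was 1.67 and the edgeR adjusted p 0.612, so the call was lost. In fibroblasts 13 genes were past 1.5-fold in opposite directions on the 2 diets, and in smooth muscle cells 16 genes were. For these 13 and 16 genes the difference between the diets was not tested.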

How the results depend on the processing

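No paired analysis was possible because the replicate numbers only name libraries. The diet term already compares the labels within each diet. The 49 fibroblast calls became 9 with DESeq2, 89 with no filter on low genes, 1 with no diet term, 32 after thinning to 3000 UMIs per cell, 13 in fibroblasts without Pi16, and 0 to 75 without 1 library. The 8 smooth muscle calls became 2 with DESeq2, 18 with RLE size factors (6 higher and 12 lower, against 1 and 7), 15 with no filter, 19 with filterByExpr, 2 with no diet term, 17 with gates per 10000 UMIs, 16 without Scrublet doublets, 4 after thinning, 3 with neutrophil, macrophage and red cell markers left out, and 2 to 11 without 1 library. Such counts do not tell whether the same genes were called. With filterByExpr 52 fibroblast genes were called, 29 of them among the 49, and after thinning 28 of the 49 remained. With 1 library left out, at most a part of the 49 and of the 8 was called again. The label by class call became 0 with the highest cells left out. The share of genes with 1 direction moved from 41.8% in fibroblasts to 37.85% with no filter, 44.2% with filterByExpr, 44.04% after thinning, 50.37% without Pi16, 37.56% at 100 CPM or more and 46.48% past 1.5-fold in either pair, and from 39.4% in smooth muscle cells to 35.28%, 41.77% and 44.77% with the first 3 of these and to 32.1% and 35.21% with the last 2.

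With 1 library left out, the fitted log2 difference reversed for 13 called fibroblast genes without the library labelled Nrf2Cdh5tKO on standard diet, with ranges over the 4 libraries left out of −0.0141 to 1.86 (Gucy1a1), −0.227 to 1.72 (Col15a1), −0.426 to 1.84 (Vwa1), −0.449 to 2.17 (Cyp51), −2.7 to 5.75 (Cxcl9), −0.00496 to 2.61 (Sparcl1), −0.307 to 1.76 (Egr3), −0.0768 to 1.49 (Panx1), −1.57 to 0.0451 (Nr1d1), −0.685 to 3.19 (Meox1), −0.775 to 2.17 (Idi1), −0.318 to 1.72 (Lhfpl2) and −0.228 to 2.04 (F2r). Without the Nrf2Cdh5Lox high-fat library Ctla2a reversed (range −3.28 to 0.574), as did Igfbp5 (−2.54 to 0.28) and Igfbp6 (−2.85 to 0.0897) in smooth muscle cells, and without the Nrf2Cdh5Lox standard-diet library Corin did (−4.26 to 1.21). In fibroblasts without Pi16, 12 called genes reversed: Kif1a (−0.00129), Plekha6 (−0.235), Nr4a2 (−0.0234), Col15a1 (−0.198), Vwa1 (−0.283), Cxcl9 (−2.2), Sparcl1 (−0.104), Ppp1r14a (−0.288), Enpp1 (−0.841), Egr3 (−0.0442), Meox1 (−1.76) and F2r (−1.34). The fibroblasts without Pi16 were only 235, 28, 23 and 87 cells. Cxcl9 reversed to −2.05 with the highest cells left out, and Tnnt2 in smooth muscle cells to 0.00706 with gates per 10000 UMIs. The cause was not tested for these, except for Cxcl9, for which 1 cell held 796 of 819 UMIs in the library labelled Nrf2Cdh5tKO on standard diet. Over all named genes and settings, 2810 values counted as the same, 364 as weaker, 12 as stronger and 31 as reversed. Every reversed value belonged to a called gene. Uncalled genes that stayed uncalled count as the same whatever their direction, so the 2810 do not show that direction was kept. Depth was lowest in the 52 smooth muscle cells of the Nrf2Cdh5Lox high-fat library.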
